A study of Homo sapiens with 6 samples.

Results

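Described here are 49 interferon-stimulated genes in A549 cells with and without a guide against UXS1. They were chosen by name, and each matched 1 row of a deposited count table of 28317 genes. Interferon-stimulated genes are the genes that cells switch on when interferon binds its receptor. Interferon receptors act through JAK kinases, which phosphorylate STAT proteins. STAT2 and IRF9 are parts of ISGF3, a complex that binds the interferon-stimulated response element in promoters. The products block virus entry, sense or cut viral RNA, attach the small modifier ISG15 to proteins and feed back on the pathway. A549, a lung adenocarcinoma cell line, is widely used to study this response because it can mount it after infection.

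RNA was sequenced from A549 cells in 3 libraries of UXS1 KO cells and 3 libraries of control cells. UXS1 KO cells received lentiCRISPR v2, a lentivirus carrying Cas9, with 1 guide against UXS1, the enzyme that makes UDP-xylose. Control cells received the same virus with a non-targeting guide. Both groups therefore carried virus and Cas9, spent 5 days in puromycin and were collected on day 7 after infection. No label describes single-cell cloning, and none names an interferon treatment for either group. The series design calls the libraries biological triplicates without saying whether they were separate infections, so the tests measure the spread between these libraries, which may be partly technical.

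Total counts ran from 21121489 to 22160405 per library. UXS1 had 740, 735 and 764 counts in UXS1 KO cells and 1346, 1416 and 1372 counts in control cells, with a log2 fold change of -0.89 (SE 0.0475, adjusted p = 2.2e-14 by edgeR). The guide's gene was thus lower in each UXS1 KO library, with transcript remaining. Over all genes tested, 24.5% were called higher and 23.7% lower. The 8 markers of A549 epithelial identity all passed the minimum count, and 4 of these were called higher and none lower. These were KRT19, EPCAM, CDH1 and AKR1B10, the last a call lost under 5 of 15 alternatives (adjusted p up to 0.47).

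Below, a level in CPM, counts scaled to a common library size, compares 1 gene between libraries, and a level in TPM, which also divides by gene length, compares genes with each other. A gene was tested when at least 3 libraries reached 10 counts at the median depth. A change was called at an edgeR adjusted p under 0.05 over all 15757 genes tested.

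Most interferon-stimulated genes were higher in UXS1 KO cells. Among those called higher at the minimum count in all 6 libraries, the rise ran from 1.08-fold for EIF2AK2 to 5.74-fold for IFI44. Of the 39 that reached the minimum count in all 6 libraries, 33 rose, 1 fell and 5 did not pass the test. Over all genes tested, 24.5% rose and 23.7% fell, and among the 14525 genes at the minimum count in all 6 libraries the shares were 24.5% and 25.1%. In 32 of the 39 every UXS1 KO library lay above every control library, as in 27.5% of all genes tested, while the reverse held for 26.9% of them. The median log2 fold change of the 39 was 0.76, beside -0.0099 over those 14525 genes. A further 7 members (IFI27, IFI44L, IFITM1, MX2, OAS2, BST2 and GBP1) were tested only because their UXS1 KO levels cleared the minimum, so they had to be higher and give no support to the count. XAF1, RSAD2 and EPSTI1 were not tested. In bulk RNA, a strong response in a few cells and a weak one in all cells cannot be told apart, and neither can fewer cells and less RNA per cell.

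The promoter element bound by ISGF3 is shown for members in order of adjusted p, because it is the sequence through which many of these genes respond. The letters searched were GAAA, any 2 bases and GAAA, on both strands, so TTTC, any 2 bases and TTTC also counts, in the 250 bases before each RefSeq start (GRCh38.p14). Each window below runs 5′ to 3′ on the gene's strand with 30 bases on either side of the outermost matches where the 250 bases allow, and the capitals mark the matches, which overlap in ISG15 and HERC5. HERC5, the member that fell, was added after its value was seen.
LGALS3BP, chr17:78979942-78980011, minus strand: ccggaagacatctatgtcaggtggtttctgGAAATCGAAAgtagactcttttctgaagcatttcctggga
IFI6, chr1:27672246-27672378, minus strand: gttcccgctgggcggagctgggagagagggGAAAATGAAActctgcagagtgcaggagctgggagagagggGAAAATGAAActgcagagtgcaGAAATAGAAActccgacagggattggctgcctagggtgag
IFITM3, chr11:320861-320942, minus strand: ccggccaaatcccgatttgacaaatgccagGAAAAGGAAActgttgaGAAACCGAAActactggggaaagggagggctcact
IFITM1, chr11:313970-314039, plus strand: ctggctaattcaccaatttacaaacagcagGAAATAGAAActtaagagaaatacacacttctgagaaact
IFIT1, chr10:89392477-89392559, plus strand: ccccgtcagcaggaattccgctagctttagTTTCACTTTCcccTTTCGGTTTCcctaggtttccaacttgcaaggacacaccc
IFI44, chr1:78649741-78649788, plus strand: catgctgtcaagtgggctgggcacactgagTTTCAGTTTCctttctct
ISG20, chr15:88638917-88638986, plus strand: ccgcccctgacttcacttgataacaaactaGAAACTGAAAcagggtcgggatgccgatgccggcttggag
ISG15, chr1:1013354-1013429, plus strand: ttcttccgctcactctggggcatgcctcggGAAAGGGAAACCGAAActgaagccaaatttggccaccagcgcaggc
HERC5, chr4:88456964-88457084, plus strand: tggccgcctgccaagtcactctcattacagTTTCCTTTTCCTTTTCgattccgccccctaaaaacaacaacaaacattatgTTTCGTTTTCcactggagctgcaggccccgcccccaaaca

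Of the 39 members with a RefSeq promoter entry 23 held the motif (59.0%), against 3.02% of 35116 RefSeq promoters and 2.30% of the 11148 promoters matched to tested genes. Matches were present in 19 of 31 members that rose, in 2 of 4 that did not pass the test, and in HERC5. IFIT5 and OAS3 were the members that held it without passing, with 2 matches each. MX1, STAT2, OAS1 and IRF9 held no match in this window. A gamma-activated sequence, searched as TTCNNNGAA, which reads the same on both strands, was in 10 of the 39 (25.6%), against 6.57% of all RefSeq promoters. IRF1, STAT2's partner IRF9 and OAS1 held it, and GBP1 did not. A match describes letters and not binding.

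Among membrane-acting members, IFI6, which guards mitochondria and the endoplasmic reticulum of infected cells, stood at 27.7, 37.0 and 35.7 CPM in UXS1 KO cells and at 8.37, 9.15 and 10.7 CPM in control cells. Its groups were far apart, and the log2 fold change was 1.83 (SE 0.0966, adjusted p = 1.6e-14 by edgeR). IFITM1, which blocks fusion of virus with the cell membrane, had 92, 132 and 110 counts in UXS1 KO cells and 9, 6 and 11 counts in control cells, with a log2 fold change of 3.66 (SE 0.240). Its relative IFITM2, which acts in endosomes, was at 106, 113 and 99.6 CPM in UXS1 KO cells and 58.5, 65.7 and 55.5 CPM in control cells, with a log2 fold change of 0.83. IFITM3, which also acts in endosomes, was at 36.5, 36.4 and 33.8 CPM in UXS1 KO cells and 18.6, 18.5 and 16.7 CPM in control cells, with a log2 fold change of 0.98. All 3 IFITM genes had groups that did not overlap. They are close paralogs, IFITM1 shares 32.5% of its exonic length with IFITM2 on 1 strand and IFITM3 shares 21.3% with an antisense gene, so their separate values are uncertain.

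Tetherin, encoded by BST2, holds budding virus at the cell surface. It had 26, 24 and 22 counts in UXS1 KO cells and 2, 3 and 6 counts in control cells. IFI27, a small mitochondrial and nuclear-envelope protein, had 36, 37 and 47 counts in UXS1 KO cells and 5, 8 and 12 counts in control cells. Both are among the 7 members that passed the minimum only in UXS1 KO, and their log2 fold changes were 2.67 and 2.24.

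IFIT1 binds viral RNA that lacks the host's cap methylation. Of the 4 IFIT genes measured here 3 rose, where 24.5% of all genes tested rose and 23.7% fell. IFIT1 was at 14.3, 14.9 and 19.7 CPM in UXS1 KO cells and 5.64, 5.80 and 6.34 CPM in control cells (log2 fold change 1.47, SE 0.112). IFIT2 had 239, 276 and 286 counts in UXS1 KO cells and 121, 127 and 106 counts in control cells (log2 fold change 1.18). IFIT3, which stabilises IFIT1 on RNA, rose by 0.60 on the log2 scale, while IFIT5 showed a log2 fold change of 0.14 with overlapping groups (adjusted p = 0.077 by edgeR). IFIT5 had the highest level of the 4 per length in control, at 19.6 TPM beside 14.6 TPM for IFIT3, 4.68 TPM for IFIT2 and 4.48 TPM for IFIT1.

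The OAS enzymes make a second messenger from double-stranded RNA that activates RNase L. OAS2 had 76, 91 and 111 counts in UXS1 KO cells and 6, 17 and 12 counts in control cells, with a log2 fold change of 2.97 (SE 0.242). OASL, which lacks the enzymatic activity, rose by 1.29 and OAS1 by 0.37. OAS3 was at 116, 126 and 129 CPM in UXS1 KO cells and 117, 117 and 118 CPM in control cells, a difference of 0.08 on the log2 scale that did not pass the test (adjusted p = 0.12 by edgeR). OAS3 also had the highest control level of the 4 per length, 50.1 TPM, beside 39.1 TPM for OAS1. EIF2AK2, the kinase PKR that halts translation on double-stranded RNA, showed a log2 fold change of 0.11 with overlapping groups, and its call (adjusted p = 0.035 by edgeR) was lost with DESeq2, with each TPM setting and without any of UXS1 KO replicate 1, UXS1 KO replicate 2, control replicate 2 or control replicate 3 (adjusted p from 0.0028 to 0.24 over all alternatives).

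Of the dynamin-like and guanylate-binding GTPases, MX1 and GBP2 rose. MX2, GBP1 and IFI44L, also given here, passed the minimum only in UXS1 KO and so had to be higher. MX1, which traps viral nucleocapsids, was at 7.73, 9.95 and 11.8 CPM in UXS1 KO cells and 2.41, 1.43 and 2.05 CPM in control cells, with a log2 fold change of 2.32 (SE 0.168). MX2, a nuclear-pore relative that restricts HIV, had 17, 11 and 13 counts in UXS1 KO cells and 3, 4 and 4 counts in control cells, and its call was lost on log2(TPM + 1) with no filter (adjusted p = 0.064). GBP1, which coats intracellular bacteria, had 26, 29 and 31 counts in UXS1 KO cells and 7, 14 and 7 counts in control cells, and GBP2 rose by 1.34. IFI44 had 59, 86 and 81 counts in UXS1 KO cells and 11, 14 and 14 counts in control cells, with a log2 fold change of 2.52. Its neighbour IFI44L had 21, 23 and 19 counts in UXS1 KO cells and no count in control, so its level in UXS1 KO was at least 21.0-fold higher, taking 3 counts summed over the control group as the limit.

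Among nucleases, ubiquitin ligases and other restriction factors, TRIM22 was at 18.5, 18.8 and 20.7 CPM in UXS1 KO cells and 4.59, 4.42 and 5.76 CPM in control cells. Its log2 fold change was 1.98 (SE 0.0972, adjusted p = 4.5e-15 by edgeR), and 10.7% of its exonic length overlaps the olfactory receptor gene OR56B1 on the same strand. The exonuclease ISG20 was at 11.4, 11.6 and 11.8 CPM in UXS1 KO cells and 5.69, 6.12 and 5.91 CPM in control cells, with a log2 fold change of 0.97. SAMD9L, a poxvirus restriction factor, was at 7.36, 5.51 and 7.07 CPM in UXS1 KO cells and 2.77, 2.30 and 2.05 CPM in control cells, with a log2 fold change of 1.48. Its neighbour SAMD9 rose by 0.59, the helicase-like DDX60 by 0.98 and TRIM21, the cytosolic antibody receptor, by 0.25. For DDX60L the log2 fold change was 0.22, and DESeq2, each TPM setting and the fit without UXS1 KO replicate 3 did not call it (adjusted p from 0.0030 to 0.19 over all alternatives). The nuclear body protein SP110 did not pass (log2 fold change -0.12, adjusted p = 0.36 by edgeR).

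LGALS3BP, a secreted glycoprotein that binds galectins, was the most abundant member, at 670 TPM in UXS1 KO and 358 TPM in control. It was at 658, 668 and 648 CPM in UXS1 KO cells and 341, 363 and 351 CPM in control cells, with a log2 fold change of 0.91 with the smallest adjusted p of the 49 (SE 0.0352, adjusted p = 3.5e-17 by edgeR). IFI35, which works with NMI, was at 48.6, 48.8 and 52.2 CPM in UXS1 KO cells and 28.7, 35.5 and 31.4 CPM in control cells, with a log2 fold change of 0.65. CMPK2, a mitochondrial nucleotide kinase, rose by 0.91. Its antiviral neighbour RSAD2, viperin, had 3, 2 and 7 counts in UXS1 KO cells and 1, 2 and 1 in control, and was not tested. XAF1 had 2, 1 and 1 counts in UXS1 KO cells and none in control, and EPSTI1 had 10, 3 and 5 counts in UXS1 KO cells and 3, 5 and 0 in control. These levels are too low for a difference to be detectable at this depth.

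**Figure D1:**
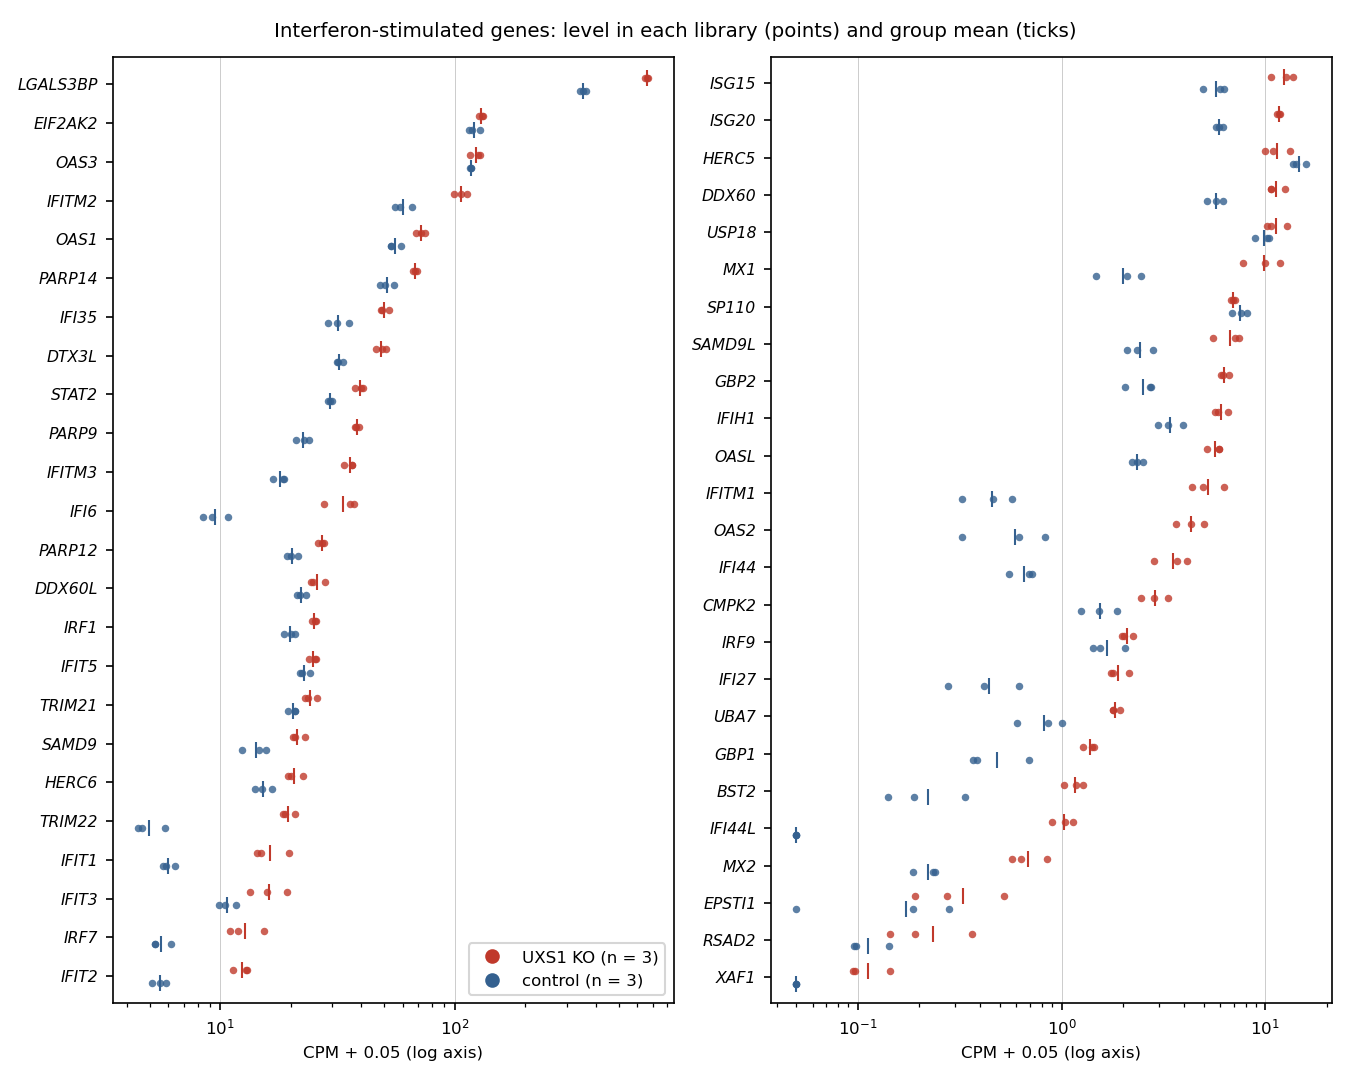
Level of each of the 49 genes in each library, as CPM + 0.05 on a log axis, with UXS1 KO (red) above control (blue) in each row; points are libraries (n = 3 each) and ticks are means. UXS1 KO points lie to the right of control points for most genes, while HERC5 and SP110 have lower means in UXS1 KO.

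The ISG15 system moved in more than 1 direction. ISG15, the ubiquitin-like modifier, was at 10.6, 13.7 and 12.5 CPM in UXS1 KO cells and 4.87, 5.93 and 6.24 CPM in control cells, with a log2 fold change of 1.11 (SE 0.111). UBA7, its activating enzyme, had 37, 37 and 42 counts in UXS1 KO cells and 21, 12 and 17 counts in control cells, and rose by 1.21 on the log2 scale. HERC5, the main ISG15 ligase in human cells, was at 10.9, 9.90 and 13.1 CPM in UXS1 KO cells and 15.9, 13.6 and 14.1 CPM in control cells. The groups did not overlap, though the highest UXS1 KO library came close to the lowest control library. HERC5 fell by 0.36 on the log2 scale (SE 0.0930, adjusted p = 0.0022 by edgeR), a call lost on log2(TPM + 1) with no filter (adjusted p = 0.11). USP18, which removes ISG15 and also shuts down the receptor IFNAR2, showed a log2 fold change of 0.20 with overlapping groups (adjusted p = 0.10 by edgeR).

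All 4 genes of the ADP-ribosylation group rose by modest amounts, where 24.5% of all genes tested rose and 23.7% fell. PARP9 was at 37.9, 37.7 and 38.9 CPM in UXS1 KO cells and 23.9, 22.7 and 21.0 CPM in control cells, with a log2 fold change of 0.76 (SE 0.0577). Its partner ligase DTX3L, which starts from the same promoter region in the opposite direction, was at 46.3, 50.9 and 48.7 CPM in UXS1 KO cells and 33.2, 31.7 and 31.4 CPM in control cells, with a log2 fold change of 0.60. PARP12 rose by 0.42 and PARP14 by 0.40. IFIH1, the RNA sensor MDA5, had 119, 123 and 146 counts in UXS1 KO cells and 64, 71 and 82 counts in control cells, with a log2 fold change of 0.83.

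Of the 4 transcription regulators on the list STAT2, IRF1 and IRF7 rose and IRF9 did not pass. Over all genes tested, 24.5% rose and 23.7% fell. STAT2 was at 37.4, 40.0 and 40.6 CPM in UXS1 KO cells and 29.8, 28.7 and 29.4 CPM in control cells, with a log2 fold change of 0.42 (SE 0.0535). IRF1, a factor activated by both interferon classes, was at 25.3, 24.6 and 25.6 CPM in UXS1 KO cells and 18.7, 20.1 and 20.8 CPM in control cells, with a log2 fold change of 0.34, and 22.0% of its exonic length overlaps genes on the opposite strand. IRF7, which drives interferon genes and is itself induced, was at 10.9, 11.8 and 15.3 CPM in UXS1 KO cells and 6.09, 5.24 and 5.24 CPM in control cells, with a log2 fold change of 1.20 (SE 0.117, adjusted p = 3.0e-09 by edgeR). IRF9 had 41, 42 and 49 counts in UXS1 KO cells and 33, 30 and 42 counts in control cells, with overlapping groups and a difference of 0.33 on the log2 scale that did not pass (adjusted p = 0.19 by edgeR). Another gene overlaps 48.4% of the exonic length of IRF9 on the same strand. The median log2 fold change was 0.38 over these 4 regulators and 0.98 over 33 tested effectors, a median that includes the 7 genes that had to be higher to be tested, and the difference between roles was not tested.

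**Figure D2:**
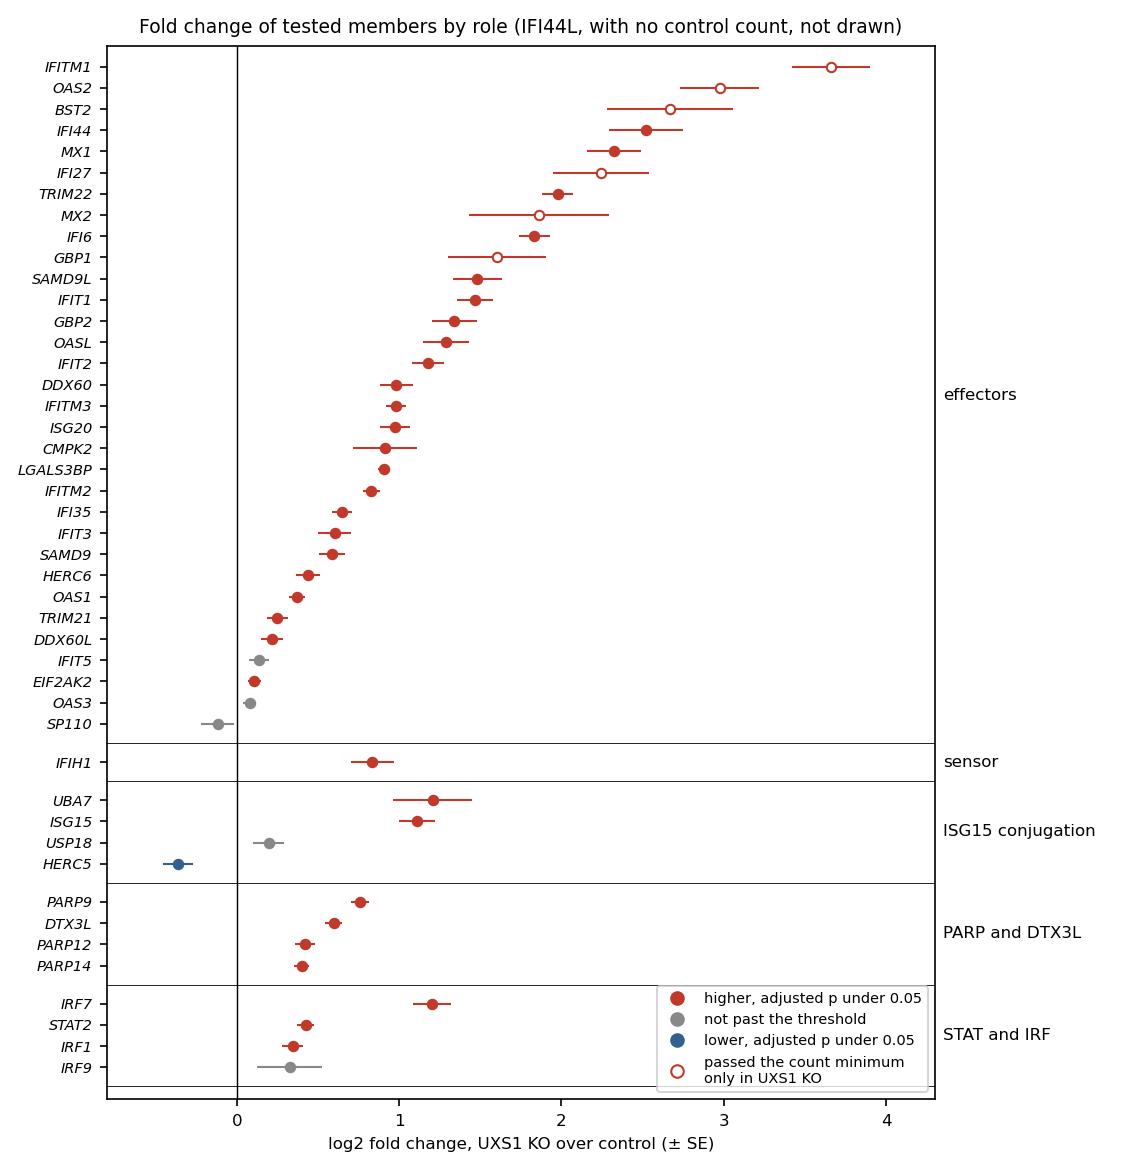
Log2 fold change of each tested gene, UXS1 KO over control, with its standard error, grouped by role; red is higher, blue lower and grey not past the threshold, and open circles mark genes that passed the minimum count only in UXS1 KO. IFI44L, which has no control count, is not drawn; effectors run from -0.12 to 3.66, and HERC5 at -0.36 is the lowest point.

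The 39 members at the minimum count in all 6 libraries were also split by level. Of 17 members with a mean of at least 20 CPM over all 6 libraries, 15 rose and 1 of these, IFI6, by at least 2-fold. Of 14 members between 5 and 20 CPM, 11 rose, 6 of them by at least 2-fold, and HERC5 fell. Of 8 members under 5 CPM, 7 rose, 5 of them by at least 2-fold. The 7 members that the filter required to be higher all lie under 5 CPM and are left out of these counts. For comparison, 3.76% of all tested genes rose by at least 2-fold. So did 2.31% of those at the minimum count in all 6 libraries, and 12 of the 39 members at that minimum (30.8%). Of all genes at that minimum, 24.5% rose by any amount. These shares pool all levels. No share of all genes was taken within each level, so whether the difference between levels is particular to the members was not tested.

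Some members that lie next to each other in the genome changed by different amounts. The 49 genes include 11 clusters holding 28 of them, counting members whose starts lie within 500 kb of the next. In 3 of the 11 clusters, a member called higher lay with a member that fell or did not pass the test. On chromosome 4, HERC6 (88378739 to 88443111, plus strand, GRCh38) rose by 0.44 while HERC5 (88457117 to 88506163, plus strand) fell. Within a library the count of HERC6 over that of HERC5 was 1.83, 2.26 and 1.49 in UXS1 KO and 1.04, 1.11 and 0.987 in control. On chromosome 12, OAS1, OAS3 and OAS2 lie in a row from 112906777 to 113011723. There the ratio of OAS2 to OAS3 was 0.0308, 0.0341 and 0.0386 in UXS1 KO and 0.00233, 0.00671 and 0.00486 in control. OAS2 passed the minimum only in UXS1 KO and so had to be higher, and this ratio gives no support to a difference between neighbours. On chromosome 10, where IFIT2, IFIT3, IFIT1 and IFIT5 span 89283694 to 89421001, the ratio of IFIT1 to IFIT5 was 0.568, 0.629 and 0.767 in UXS1 KO and 0.259, 0.241 and 0.285 in control. The ratios of MX1 to MX2 and of GBP1 to GBP2 overlapped between the groups. The pairs were chosen after their values were seen, so the ratios are a description with no test. Each ratio puts the member with the larger fold change over the one with the smaller. A higher mean ratio in UXS1 KO was thus set by that choice. Such ratios do not depend on how libraries are scaled.

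**Figure D3:**
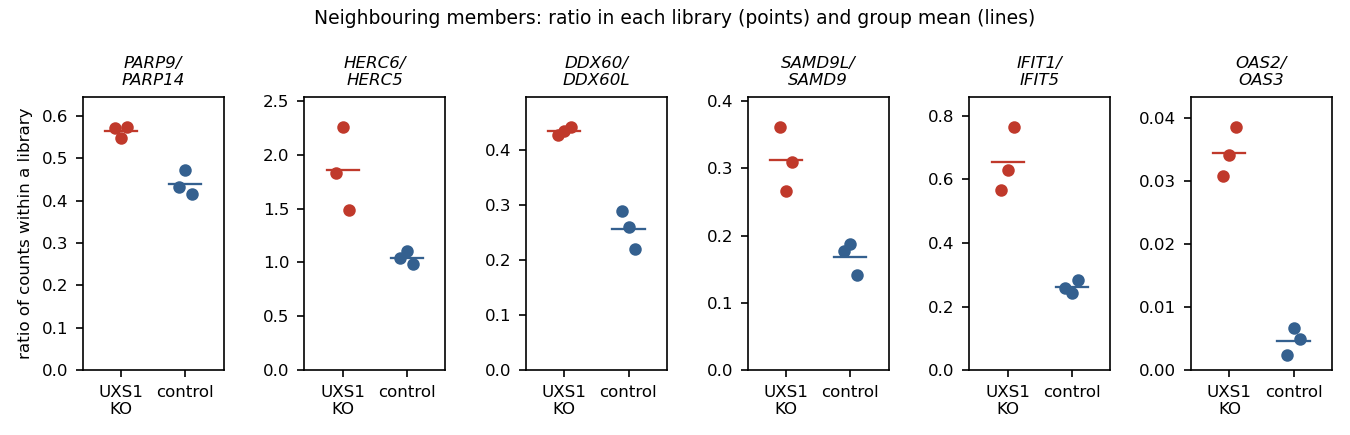
Ratio of the counts of neighbouring members within each library for 6 pairs, with UXS1 KO (red) left of control (blue); points are libraries, lines are group means, and each vertical axis starts at 0. UXS1 KO points lie above all control points in each of the 6 pairs. Each ratio puts the member with the larger fold change on top, so its direction was set by that choice. OAS2 passed the minimum count only in UXS1 KO and so had to be higher. The overlapping ratios of MX1 to MX2 and of GBP1 to GBP2 are not drawn.

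Of 13 interferon genes on a list of ligands, IFNA1 and IFNE were analysed here, and only IFNE was tested. The other ligands were not analysed here. IFNA1 had 9, 8 and 12 counts in UXS1 KO cells and 7, 7 and 4 in control and was not tested, and it has close paralogs. IFNE, an epithelial interferon, had 10, 12 and 14 counts in UXS1 KO cells and 13, 19 and 18 in control, a difference of -0.47 on the log2 scale that did not pass the test (adjusted p = 0.23 by edgeR).

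The receptor chains of type I and type III interferon did not pass the test, which does not show that they were equal. IFNAR1 was at 65.4, 63.3 and 66.5 CPM in UXS1 KO cells and 62.9, 61.3 and 62.8 CPM in control cells (log2 fold change 0.06, SE 0.0426). IFNAR2 showed a log2 fold change of 0.14, IFNLR1 of 0.0048 and IL10RB of -0.20, with SEs of 0.162, 0.137 and 0.207 at levels of 1.66 to 3.88 CPM in UXS1 KO cells and 1.91 to 3.86 CPM in control cells. The chains of the interferon-gamma receptor did rise. IFNGR1 was at 56.0, 57.4 and 57.2 CPM in UXS1 KO cells and 44.6, 43.4 and 44.1 CPM in control cells, with a log2 fold change of 0.37 (SE 0.0451), and IFNGR2 rose by 0.23.

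Of the JAK kinases 1 fell and 2 did not pass the test, where 24.5% of all genes tested rose and 23.7% fell. JAK1, which serves all 3 interferon receptor types, was at 209, 207 and 211 CPM in UXS1 KO cells and 306, 291 and 293 CPM in control cells, and fell by 0.50 on the log2 scale (SE 0.0354, adjusted p = 5.2e-12 by edgeR). TYK2 showed a log2 fold change of -0.02 and JAK2 of 0.20, neither past the threshold.

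Some other genes of the IRF group rose. IRF2BP2, a corepressor of IRF2, rose by 0.55, IRF5 by 0.25 and IRF2BP1 by 0.12, the last a call lost under 8 of 15 alternatives. IRF3, the factor that first responds to sensed nucleic acid, showed a log2 fold change of 0.08 (SE 0.0460) and did not pass.

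The RNA sensors IFIH1, DDX58 and TLR3 rose and the DNA sensor CGAS fell, while the RNA sensor DHX58 was too low to test. Of 13 tested sensors and adaptors 7 rose, 2 fell and 4 did not pass, where 24.5% of all genes tested rose and 23.7% fell. DDX58, which encodes the RNA sensor RIG-I, had 664, 664 and 814 counts in UXS1 KO cells and 349, 333 and 354 counts in control cells, with a log2 fold change of 1.04 (SE 0.0691). TLR3, the endosomal sensor of double-stranded RNA, rose by 1.33, IFI16, a nuclear DNA sensor, by 0.94 and SAMHD1, a nucleotide hydrolase, by 0.41. CGAS averaged 8.62 ± 0.531 CPM in UXS1 KO cells and 11.9 ± 0.680 CPM in control cells, with a log2 fold change of -0.46 (SE 0.0891), and the adaptor TRAF3 had one of -0.26. The adaptor STING1 rose by 0.36 and the kinase IKBKE by 0.26, calls lost under 2 and 5 of 15 alternatives, DESeq2 among them. The adaptors MAVS and TICAM1 and the kinase TBK1 did not pass, with log2 fold changes of -0.05, 0.06 and -0.08.

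Of 8 brakes of the pathway 2 rose and 1 fell, which is near or below the shares of all genes tested (24.5% rose and 23.7% fell). The phosphatase PTPN6 rose by 0.38. SOCS3, an inhibitor of cytokine receptors, showed a log2 fold change of 0.21 and PIAS4 one of -0.15, each call being lost under 4 of 15 alternatives, DESeq2 among them. SOCS1, the main inhibitor of JAK kinases, had 11, 18 and 19 counts in UXS1 KO cells and 22, 13 and 9 in control.

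**Figure D4:**
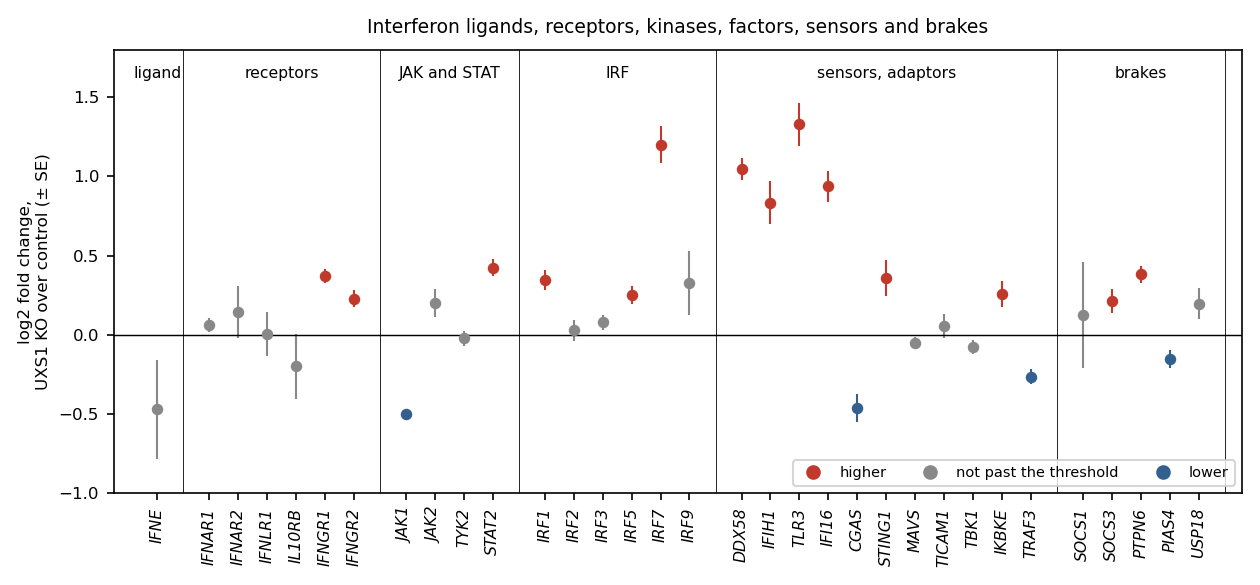
Log2 fold change, UXS1 KO over control, with its standard error for genes upstream of the response and its brakes, in signalling order from left to right; red is higher, blue lower and grey not past the threshold. IRF7, DDX58, IFIH1, TLR3 and IFI16 stand highest, between 0.83 and 1.33, while JAK1, CGAS, TRAF3 and PIAS4 are the genes called lower.

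A separate list held 39 other interferon-induced genes, of which 31 were tested. Of these 23 rose, none fell and 8 did not pass, where 24.5% of all genes tested rose and 23.7% fell. The 23 include CCL5, with 21, 27 and 27 counts in UXS1 KO cells and 10, 12 and 10 in control. It did not reach the minimum in every control library, so it had to be higher to be tested and gives no support to the count. The rest of the 23 were not screened for this. The median log2 fold change was 0.26 beside -0.0030 over all genes tested. GBP3, a relative of GBP1, averaged 17.7 ± 1.87 CPM in UXS1 KO cells and 6.47 ± 0.453 CPM in control cells (SD, n = 3 each), with a log2 fold change of 1.45. UBE2L6, the E2 enzyme that carries ISG15, rose by 0.79, SLFN5 by 0.69 and APOL1, a trypanosome-killing apolipoprotein, by 0.91. The class II transactivator CIITA, a gene of the interferon-gamma response, had 13, 14 and 14 counts in UXS1 KO cells and 19, 15 and 22 in control, and did not pass. It was singled out after its value was seen. The chemokines CXCL9, CXCL10 and CXCL11 were not analysed here. This list was written with earlier results of these data known.

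Among markers of other cell types, those of endothelium were low, the leukocyte sum was mostly CD14 and the fibroblast sum was mostly FBLN1. The 9 leukocyte markers analysed summed to 33.4 to 36.1 CPM per library in UXS1 KO and 14.5 to 16.6 CPM in control cells. Of 6 tested 5 rose and 1 fell, where 24.5% of all genes tested rose and 23.7% fell. The 6 were not screened for genes that passed the minimum through only 1 group. Those that rose were CD14, CD79A, LYZ, LCP1 and ITGB2. CORO1A fell, a call lost on log2(TPM + 1) with no filter. CD14 held most of the sum and averaged 22.6 ± 0.410 CPM in UXS1 KO cells and 9.15 ± 1.20 CPM in control cells (SD, n = 3 each). The T cell gene CD3E had no count in any library and CD74 had 1 count in each UXS1 KO library and 2, 2 and 1 in control. Markers of fibroblasts summed to 103 to 106 CPM in UXS1 KO cells and 116 to 121 CPM in control cells, and those of endothelium to 1.18 to 1.52 CPM in UXS1 KO cells and 1.05 to 2.10 CPM in control cells. Of the tested fibroblast markers THY1 rose and FBLN1 fell, while COL1A2 had no count. LUM was called higher, but not under 6 of 14 alternatives, DESeq2 and each TPM setting among them (adjusted p up to 0.11), and the only endothelial marker tested, CDH5, did not pass. The 3 markers of plasmacytoid dendritic cells, strong producers of interferon, and the leukocyte marker PTPRC were not analysed here. The part of any such cells in the rise was not tested.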

How the data were processed

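The authors deposited raw counts per gene, whole numbers with no normalization per the file headers, and TPM values, length-scaled levels, which are also the authors' own. Per the submitters' processing notes, the tools were STAR, featureCounts and DESeq2 with hg38. The sources used here give no version, strand setting or annotation release, so overlapping genes cannot be told apart. Groups came from the sample titles.

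Genes were filtered with filterByExpr (minimum count 10, leaving 15757 of 28317), scaled with TMM and tested with edgeR 4.0.16 in R 4.3.3 (quasi-likelihood F test, two-sided, group as the only term, Benjamini-Hochberg adjusted p under 0.05). SEs are the log2 fold change over the root of F. CPM values use the TMM factors. An exact permutation test of 3 against 3 libraries cannot go below p = 0.1 and was not used. The fit was tested on simulated data. Positions come from GENCODE 29 on GRCh38 and promoters from RefSeq on GRCh38.p14, the same assembly, where 39 of 49 members matched. IFIT2, OAS2, OASL, MX2, UBA7, USP18, TRIM22, GBP2, IFITM2 and IRF7 did not. Of 134 entries on the other lists 114 matched a row, 4 of them through a current symbol.

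The members and lists were chosen with earlier results of these data known. By rule, values in every library are given for IFI6, IFITM1, the 4 regulators, the 15 other members with the smallest adjusted p, members that fell, members with no count in a group and members not tested, and up to 4 genes with the smallest adjusted p of each other list plus the ligands, receptors, JAKs and STATs; further genes, the HERC5 promoter, the neighbour pairs and the class of 39 members were chosen after values were seen. Alternatives were RLE scaling, library size only, DESeq2 1.42.0, no filter, a mean CPM of at least 5, limma 3.58.1 on TPM (pseudocount 1 or 0.1 above a mean TPM of 1, and pseudocount 1 unfiltered), the replicate block and each library left out. Within each group, counts varied beyond sampling noise (1.60 to 3.39 as chi-square over its degrees of freedom), so no library was treated as a copy. Some listed genes, and counts that rest on them, are not reported here.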

Additional observations from a re-analysis of the deposited data

How the results depend on the processing

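Of the 40 tested members called higher, 37 stayed called higher under each of 15 alternatives that gave them a value. DDX60L, EIF2AK2 and MX2 were lost under at least 1 (MX2 on log2(TPM + 1) with no filter, adjusted p = 0.064). The 40 include the 7 members, MX2 among them, that had to be higher to be tested and give no support to the count. The other 33 were at the minimum count in all 6 libraries. No member reversed. The count of members higher ran from 28 of 31 tested at a mean CPM of at least 5 to 40, and was 39 or 40 with each library left out. In each of these fits 1 member, HERC5, was lower, but 0 were lower on log2(TPM + 1) with no filter. The setting with a mean CPM of at least 5 leaves out the 7 members that had to be higher. There 28.6% of all genes tested were called higher. The median log2 fold change of 0.91 over the tested members was 0.97 with no filter, 0.61 at a mean CPM of at least 5, 0.64 on log2(TPM + 1), 0.81 on log2(TPM + 0.1), 0.58 on log2(TPM + 1) with no filter and, chosen after seeing the data, 0.76 over members at the minimum count in all 6 libraries; these settings test other genes or shrink low levels. With each library left out it ran from 0.89 to 0.94. IFIT5 and OAS3 were called higher at a mean CPM of at least 5 and in 1 fit with a library left out (control replicate 2 and UXS1 KO replicate 1). Replicate numbers are shared by the groups. Deviations from the group mean correlated at 0.0101, 0.106 and 0.143 between same-numbered libraries. Between differently numbered libraries the correlations ran from -0.153 to 0.055. Whether the numbers mark pairs was not tested. The fit with the replicate block also gave 40 members higher and 1 lower with a median of 0.91. Members under about 1 CPM rest on few counts, and XAF1, RSAD2 and EPSTI1 are beyond the depth.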

Other observations

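The UXS1 KO libraries differed among themselves in member levels. Of the 39 members at the minimum count in all 6 libraries, UXS1 KO replicate 3 had the highest CPM of its group for 23 and UXS1 KO replicate 1 the lowest for 24. For the middle member, UXS1 KO replicate 1 stood at 95.6% and UXS1 KO replicate 3 at 104% of the group mean. IFIT1 is an example, with 304, 317 and 440 counts in UXS1 KO cells and 124, 126 and 133 counts in control cells. In control, the highest library was replicate 1 for 18 of the 39, replicate 2 for 9 and replicate 3 for 12. The members share these libraries, so the counts are not independent.

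IRF7 and IRF3, relatives that drive interferon genes, also differed in balance between the groups. The count of IRF7 over that of IRF3 was 0.136, 0.140 and 0.200 in UXS1 KO and 0.0849, 0.0666 and 0.0672 in control, and the groups did not overlap. This pair was chosen after its values were seen and has no test.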
